A study of Mus musculus with 2 samples.

Results

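Cluster 14 is a small group of T lineage cells from mouse colon, taken by the authors' own cluster number in their deposited cell annotation. It held 60 of the 3443 cells in the 5XFAD library and 61 of the 3443 cells in the wild-type (WT) library, 121 of 6886 in all. The 5XFAD library came from 9-month-old female mice whose genome holds human transgenes with mutations of inherited Alzheimer disease, and the WT library from their 9-month-old female littermates without them. In each genotype 3 mice were pooled into 1 library of live colon cells sorted for CD45, the surface protein of leukocytes, and captured by droplet 3′ single-cell RNA sequencing with unique molecular identifiers (UMIs, which count captured RNA molecules). In this model Thy1 promoter elements direct the transgenes to neurons, and their RNA was not measured here. With 1 pooled library per genotype there was no test between genotypes. Every 95% interval given here covers counting error only, and differences between mice, sorting and library preparation cannot be told apart from genotype.

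Naive and central memory T cells recirculate between blood and lymphoid organs. The chemokine receptor Ccr7 brings them into lymph nodes, the sphingosine-1-phosphate receptor S1pr1 lets them leave, and the transcription factor Klf2 sustains S1pr1. The factors Tcf7 and Lef1 hold the resting state, and activated or tissue-resident T cells turn much of this set down while they gain effector and retention genes. In the gut, naive and central memory T cells are found in lymphoid follicles and patches, and effector, regulatory and intraepithelial T cells make up most of the T cells of the lamina propria and epithelium.

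All 60 cells from 5XFAD and all 61 cells from WT had at least 1 UMI of Cd3d, Cd3e or Cd3g, the chains of the CD3 complex that carries the T cell receptor signal. Cd3d was at 573 CPM (the gene's UMIs per 1000000 UMIs summed over the cluster) in 5XFAD and 530 CPM in WT, Cd3e at 325 and 315 CPM, and Cd3g at 444 and 495 CPM. A UMI of an alpha beta receptor constant gene (Trac, Trbc1 or Trbc2) was found in 60 of 60 and 61 of 61 cells. The T lineage label rests on these same genes, so the values describe the cluster in both libraries and are not a test of the label.

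The 2 libraries were close in depth within the cluster. The cells summed to 403203 UMIs in 5XFAD and 396263 in WT, with medians of 6571.5 and 6283 UMIs and of 1683 and 1745 genes per cell, and the mitochondrial share had medians of 4.51% and 4.60%. Ribosomal protein genes took 42.1% of cluster 14 UMIs in 5XFAD and 37.1% in WT, above the range of 20.7 to 28.7% in the other T lineage clusters 8, 10, 11 and 13. The libraries differed in their upper gene limit, since 0 cells of 5XFAD and 106 of WT had 2500 genes or more, of which 3 WT cells were in cluster 14. Across the whole series 3 cell barcodes occurred in both libraries, and 0 within cluster 14.

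Against clusters 8, 10, 11 and 13, cluster 14 was led by genes of the naive and central memory list. The clusters were made from these same genes, so this is a description and not a test. The leading gene was Igfbp4, an insulin-like growth factor binding protein common in naive T cells, at 169 CPM in 5XFAD and 159 in WT, where the mean of the 4 clusters was 1.66 and 2.49 CPM. Lef1 followed with 563 CPM in 5XFAD and 565 in WT, against 49.2 and 69.8 CPM in the 4 clusters, a log2 difference of 3.27 and 2.85 with 10 CPM added to each level. Ccr7 was at 816 and 1027 CPM, against 113 and 99.6 CPM. S1pr1 was at 603 and 414 CPM, against 63.8 and 56.3 CPM. In mm10, by the GENCODE annotation, Igfbp4 lies at chr11:99041244-99054392 and Ccr7 at chr11:99144196-99155077, Lef1 at chr3:131110471-131224356 and S1pr1 at chr3:115710433-115715072, and all 4 are protein-coding. The cluster 14 values of these 4 genes lay above all 4 clusters in both libraries, and the highest other value was that of Ccr7 in cluster 8.

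The 15 leading genes held Igfbp4, Lef1, Ccr7, S1pr1 and Dapl1 from the list of 12 naive and central memory genes. Dapl1 was at 54.6 CPM in 5XFAD and 126 in WT, against 0.353 and 1.73 CPM in the 4 clusters. Leading genes outside the list were Rflnb, Cmah, Cd8b1, Tubb2a, Actn1, Myb, Fam241a, Cd55 and Pik3ip1. Among them Cd8b1 encodes the CD8 beta chain, Myb a transcription factor of lymphocyte progenitors and memory cells, Cd55 a brake on complement, and Pik3ip1 an inhibitor of PI3 kinase signalling in resting T cells. Cd8b1 was at 109 and 215 CPM, against 15.5 and 35.9 CPM, and Myb at 129 and 207 CPM, against 23.1 and 40.8 CPM.

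**Figure D1:**
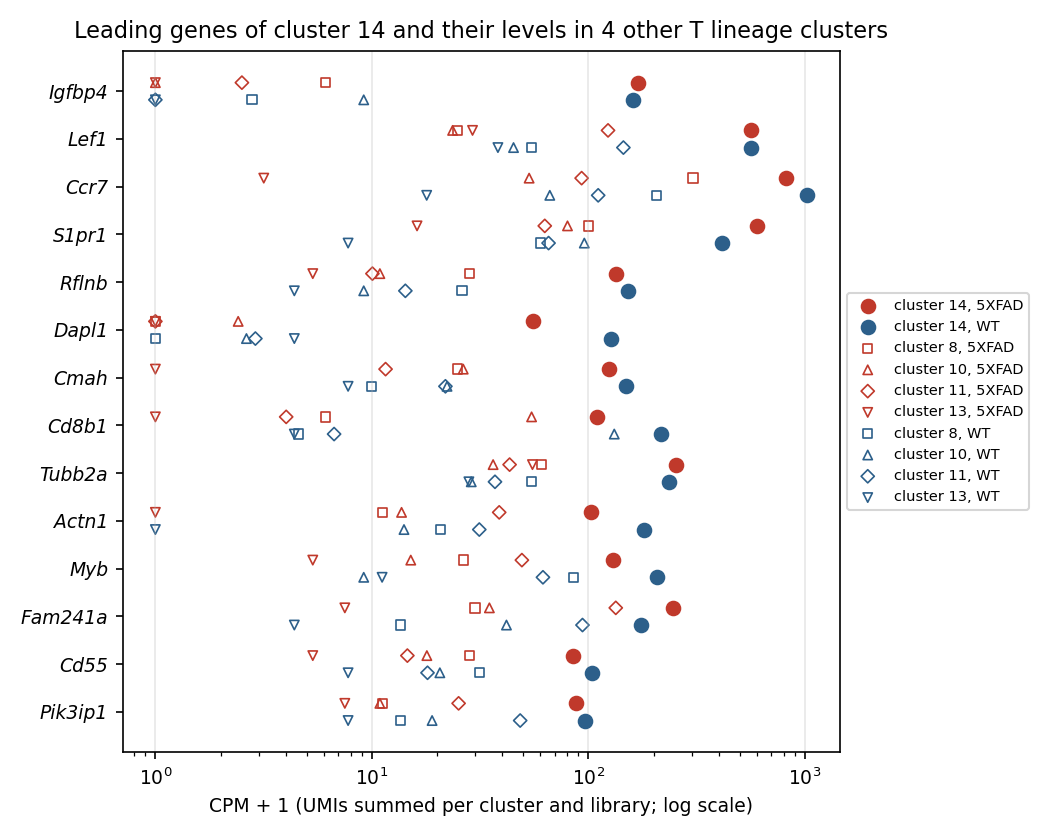
Levels of 14 of the 15 leading genes of cluster 14. The x axis is CPM + 1 on a log scale; filled points are cluster 14 and open symbols clusters 8, 10, 11 and 13, with 5XFAD above WT in each row. Igfbp4 stands at 169 CPM in 5XFAD and 159 in WT, while the 4 clusters average 1.66 and 2.49 CPM.

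Of the 12 naive and central memory genes, 10 were higher in cluster 14 by at least 1 on the log2 scale in both libraries, and over all 8430 genes compared 0.819% were. Since the clusters rest on the same genes, nothing is read from this count. Besides those above they included Klf2, Satb1, Bach2 and Foxp1. Klf2 was at 697 CPM in 5XFAD and 797 in WT, against 315 and 278 CPM in the 4 clusters. Satb1, a chromatin organiser of T cells, was at 1434 and 1491 CPM, against 401 and 512 CPM. The exceptions were Tcf7, at 273 and 320 CPM, against 162 and 239 CPM, and Il7r, the receptor chain for the survival cytokine IL-7. Il7r was at 561 and 469 CPM in cluster 14, below the 864 and 741 CPM of the 4 clusters. The shares of cells with an Il7r UMI were close, at 71.7% in 5XFAD and 72.1% in WT in cluster 14, against 73.1% and 67.8% in the 4 clusters.

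Against all other cells of the series the 10 leading genes were Lef1, Igfbp4, Ms4a4b, Myb, Cd8b1, Ms4a6b, Dusp10, Fam241a, Actn1 and Rflnb. None of them marks another lineage, and the cells are called naive and central memory T cell-like. By the overall profile cluster 14 was most like cluster 11. The Pearson correlation of log2(CPM + 10) over 2858 genes was 0.899 in 5XFAD and 0.902 in WT with cluster 11, 0.889 and 0.884 with cluster 10, 0.862 and 0.868 with cluster 8, and 0.825 and 0.820 with cluster 13. Genes are not independent points, and the profiles compared share a library.

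The 10 genes lowest in cluster 14 against the 4 clusters, in both libraries, included S100a6, S100a4, Rora and Bhlhe40. S100a6, a calcium-binding protein of effector and memory cells, gave 2 UMIs in 5XFAD and 1 in WT, and its relative S100a4 gave 0 and 1. Rora, a transcription factor of type 3 and type 2 lymphocytes, was at 22.3 CPM in 5XFAD and 25.2 in WT, against 891 and 1062 CPM in the 4 clusters. Bhlhe40, a factor of cytokine-producing resident cells, was at 12.4 and 12.6 CPM, against 557 and 524 CPM. The others were Klrk1, Tmem176a, Lmna, Ikzf2, Bcl2a1d and the epidermal growth factor ligand Areg.

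By list, 11 of 14 regulatory T cell genes, 6 of 9 type 1, 5 of 10 type 2 and 7 of 11 type 3 genes were lower by at least 1 in both libraries, and so were 7 of 9 gamma delta, 9 of 12 intraepithelial and 6 of 9 cytotoxic granule genes. Over all 8430 genes 6.49% were. Lower is against the mean of clusters 8, 10, 11 and 13, and 1 cluster can carry that mean. In 5XFAD the intraepithelial list summed to 3614 CPM in cluster 11, 218 in cluster 8 and 149 in cluster 14. Gamma delta genes there summed to 3804 CPM in cluster 13, 176 in cluster 8 and 69.4 in cluster 14. Type 2 genes there summed to 1982 CPM in cluster 8, 51.3 in cluster 11 and 19.8 in cluster 14. These counts are a description, since the clusters rest on the same genes. Foxp3, the defining factor of regulatory T cells, gave 0 UMIs in 5XFAD and 1 UMI in WT. The type 3 genes Il17a, Il17f and Il22 and the type 1 cytokine Ifng gave 0 UMIs in both libraries, where 3 counts would be 7.44 CPM in 5XFAD and 7.57 in WT. The proliferation gene Mki67 was found in 0 of 60 and 0 of 61 cells, which allows a share of cells with a UMI of up to 5.0% and 4.92% by the limit of 3 counts, and of up to 5.96% and 5.87% by the Clopper-Pearson interval.

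The trafficking list divided into both directions. Ccr7, S1pr1 and Klf2 were higher by at least 1 in both libraries, and 9 of the 24 members were lower. Rgs1, which dampens chemokine receptor signals in resident lymphocytes, was at 63.1 CPM or less in both libraries, against 946 CPM in 5XFAD and 814 in WT in the 4 clusters. Cxcr6, a receptor of resident T cells, was at 4.96 and 10.1 CPM, against 245 and 241 CPM, and Ccr2, a receptor for inflammatory chemokines, at 17.4 and 15.1 CPM, against 232 and 207 CPM. Itga4, the alpha 4 integrin chain of gut homing, was at 52.1 and 90.8 CPM, against 215 and 264 CPM. Cd69, which retains cells in tissue by removing S1pr1 from the surface, was at 166 and 225 CPM, against 356 and 390 CPM.

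Markers of other cells were mostly at or near 0. Of 13 macrophage and monocyte genes 10 in 5XFAD and 9 in WT had no UMI, of 11 mast cell and granulocyte genes 10 and 11, and of 11 epithelial genes 7 and 7. The exception was the B cell list, whose 16 members summed to 952 CPM in 5XFAD and 2519 in WT. Cells with 2 or more UMIs over 7 B cell genes (among them Cd79a, Cd79b, Ms4a1, Pax5, Fcmr and Cd22) numbered 3 of 60 (5.0%, 1.04 to 13.9) in 5XFAD and 9 of 61 (14.8%, 6.98 to 26.2) in WT. The 7 genes summed to 59.5 CPM in 5XFAD and 303 in WT in cluster 14, and they were also lower in 5XFAD in cluster 8 (46.0 and 154 CPM), cluster 10 (39.6 and 216 CPM), cluster 11 (60.4 and 175 CPM) and cluster 13 (30.3 and 135 CPM).

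The naive program was spread over nearly all of the cells. The 12 genes took a median of 0.579% of a cell's UMIs in 5XFAD (range 0.0810 to 1.08) and 0.619% in WT (0.104 to 1.20). Medians in clusters 8, 10, 11 and 13 ran from 0.150 to 0.250%. The clusters were made from these same genes, so the counts that follow are a description. At least 6 of the 12 genes were detected in 13 of 133 and 11 of 114 cells of cluster 8. In cluster 10 as many were detected in 15 of 119 and 15 of 107 cells, and in cluster 11 in 28 of 111 and 27 of 84. The numbers were 2 of 76 and 4 of 49 in cluster 13, and 59 of 60 and 57 of 61 in cluster 14. In each library the cell with the lowest share was also the one with the most UMIs of the chemokine Ccl5, a product of effector and memory CD8 T cells: it held 98 of the 128 Ccl5 UMIs of cluster 14 in 5XFAD and 8 of the 14 in WT.

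**Figure D2:**
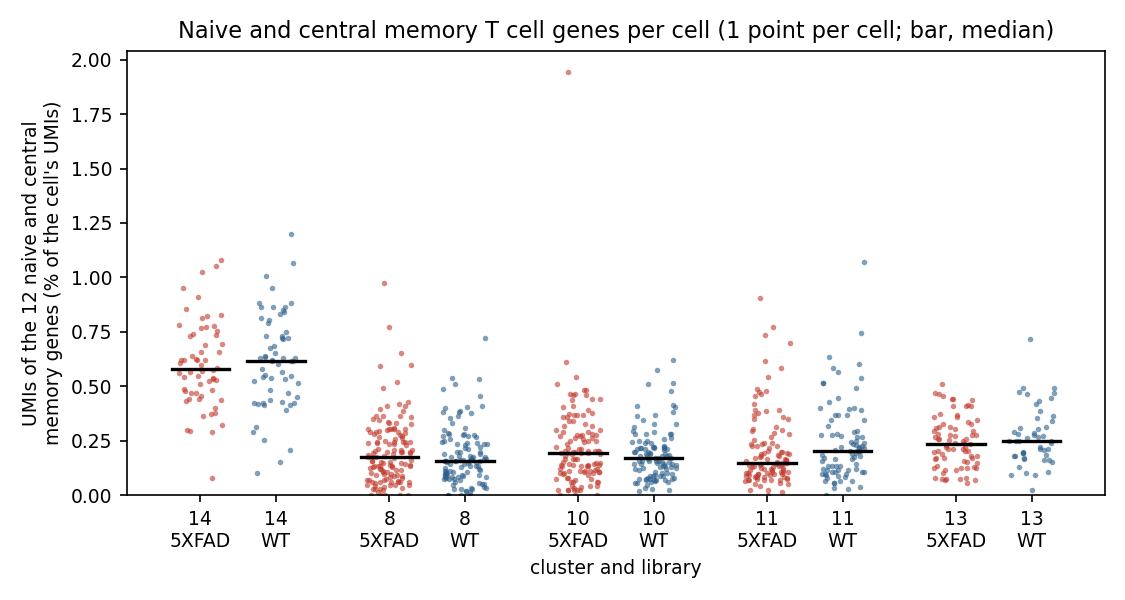
Share of each cell's UMIs taken by the 12 naive and central memory genes, in percent, by cluster and library; 1 point is 1 cell and the bar is the median. Medians are 0.579% in 5XFAD and 0.619% in WT in cluster 14 and at most 0.250% in the other 4 clusters, while single cells of those clusters reach the range of cluster 14.

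Cluster 14 mixed CD4 and CD8 T cells, and the libraries held them in different numbers. Cd4, the coreceptor of helper T cells, was detected without Cd8a or Cd8b1 in 25 of 60 cells in 5XFAD (41.7%, Clopper-Pearson 95% interval 29.1 to 55.1) and in 12 of 61 in WT (19.7%, 10.6 to 31.8). Cd8a or Cd8b1, the coreceptor chains of cytotoxic T cells, were detected without Cd4 in 17 of 60 cells (28.3%, 17.5 to 41.4) and 28 of 61 cells (45.9%, 33.1 to 59.2). Both kinds were detected in 0 and 1 cells and neither in 18 and 20. With each cell thinned to 3000 UMIs, Cd4 alone was detected in 15 of the 60 5XFAD cells (25.0%, 14.7 to 37.9) and 10 of the 61 WT cells (16.4%, 8.15 to 28.1), Cd8a or Cd8b1 alone in 14 (23.3%) and 27 (44.3%), and neither in 31 (51.7%) and 23 (37.7%). At this depth the Cd4 only shares lay closer together, and more 5XFAD than WT cells went without a call.

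Among cells with a call, those with Cd4 only made up 59.5% of 42 cells in 5XFAD (43.3 to 74.4) and 30.0% of 40 cells in WT (16.6 to 46.5), intervals that overlap at their ends. After the same thinning the shares were 51.7% of 29 cells (32.5 to 70.6) and 27.0% of 37 cells (13.8 to 44.1). The intervals overlapped further there. Without the cells that carried B cell UMIs the numbers with Cd4 only and Cd8 only were 23 and 17 in 5XFAD and 12 and 23 in WT. In B cell clusters 0 to 5, as background, Cd4 alone was found in 0 of 2364 cells in 5XFAD and 6 of 2538 in WT, and Cd8a or Cd8b1 alone in 3 and 2, at median depths of 5086.5 and 4783.5 UMIs.

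Among the other T lineage clusters only cluster 10 held both kinds above 10% of its cells. Cells with Cd4 only made up 46.2% of cluster 10 in 5XFAD and 46.7% in WT, and cells with Cd8 only 13.4% and 19.6%. Cluster 8 had Cd4 only in 41.4% and 52.6% of cells and Cd8 only in 2 cells of each library. Cluster 11 had Cd8 only in 23.4% and 27.4%, and Cd4 only in 0 of 111 and 0 of 84 cells.

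**Figure D3:**
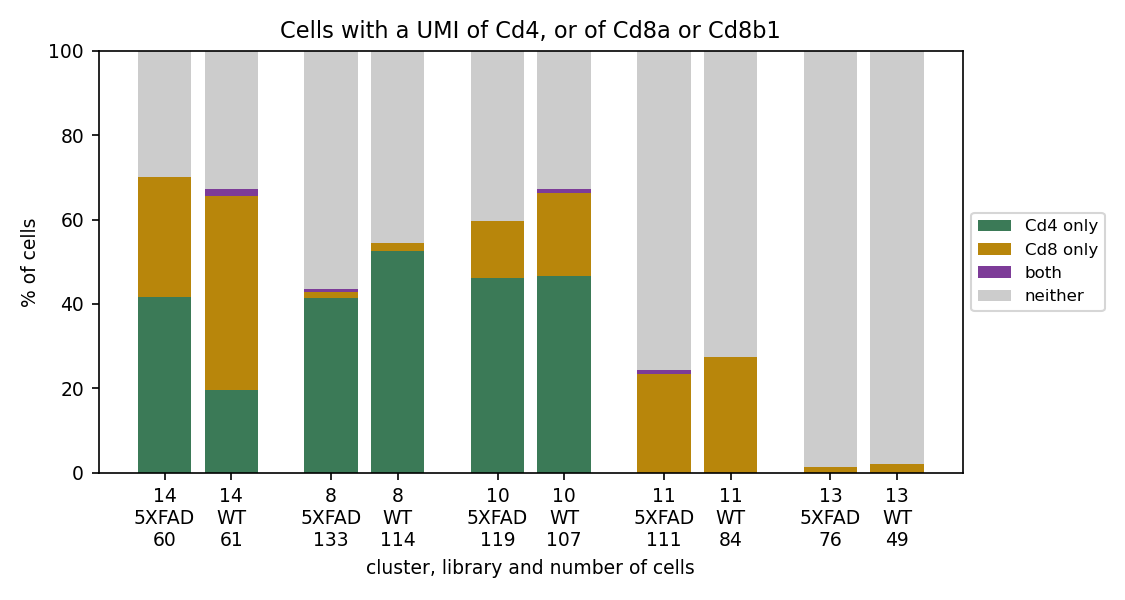
Percent of cells with a UMI of Cd4 only, of Cd8a or Cd8b1 only, of both or of neither, by cluster and library, with the number of cells under each bar. In cluster 14 the Cd4 only share is 41.7% in 5XFAD and 19.7% in WT, and the Cd8 only share 28.3% and 45.9%.

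The CD4 and CD8 cells shared the naive genes. The naive list took a median of 0.598% of UMIs in Cd8 only cells of 5XFAD and 0.590% in those of WT, and 0.622% and 0.679% in Cd4 only cells. Lef1 was detected in 14 of 17 and 27 of 28 Cd8 only cells and in 23 of 25 and 11 of 12 Cd4 only cells. S1pr1 was at 413 CPM in 5XFAD and 277 in WT in Cd8 only cells, and at 829 and 798 CPM in Cd4 only cells. Ccr7 ran the other way, with 1083 and 1095 CPM in Cd8 only cells and 600.2 and 784 CPM in Cd4 only cells.

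Beyond the coreceptors, the genes that were higher in Cd8 only cells in both libraries included genes of cytotoxic and memory CD8 cells. Nkg7, a protein of cytotoxic granules, was found in 14 of 17 Cd8 only cells in 5XFAD and 17 of 28 in WT, and in 0 of 25 and 0 of 12 Cd4 only cells. Klrd1, the CD94 receptor chain, was found in 10 of 17 and 11 of 28 Cd8 only cells, and in 0 of 25 and 1 of 12 Cd4 only cells. Il2rb, the receptor chain shared by IL-2 and IL-15, was found in 9 of 17 and 15 of 28 Cd8 only cells, and in 1 of 25 and 1 of 12 Cd4 only cells. The levels of these genes in Cd8 only cells lay below those of cluster 11. Nkg7 was at 211 CPM in 5XFAD and 195 in WT, against 603 and 548 CPM in cluster 11. Klrd1 was at 226 and 102 CPM, against 805 and 489 CPM, and Il2rb at 120 and 156 CPM, against 334 and 402 CPM. Ccl5 was found in few Cd8 only cells, 2 of 17 and 5 of 28. Gzma was found in 1 of 60 and 0 of 61 cells of the cluster and Gzmb in 0 of 60 and 1 of 61.

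In Cd4 only cells Tmem64 was higher, at 483 CPM in 5XFAD and 646 in WT, where Cd8 only cells had 45.1 and 97.4 CPM. Cd40lg, the helper signal to B cells, was found in 10 of 25 Cd4 only cells in 5XFAD and 3 of 12 in WT, and in 0 of 17 and 0 of 28 Cd8 only cells. The cells were sorted into these kinds by Cd4, Cd8a and Cd8b1 after the data had been seen, and the differences between them are descriptions.

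**Figure D4:**
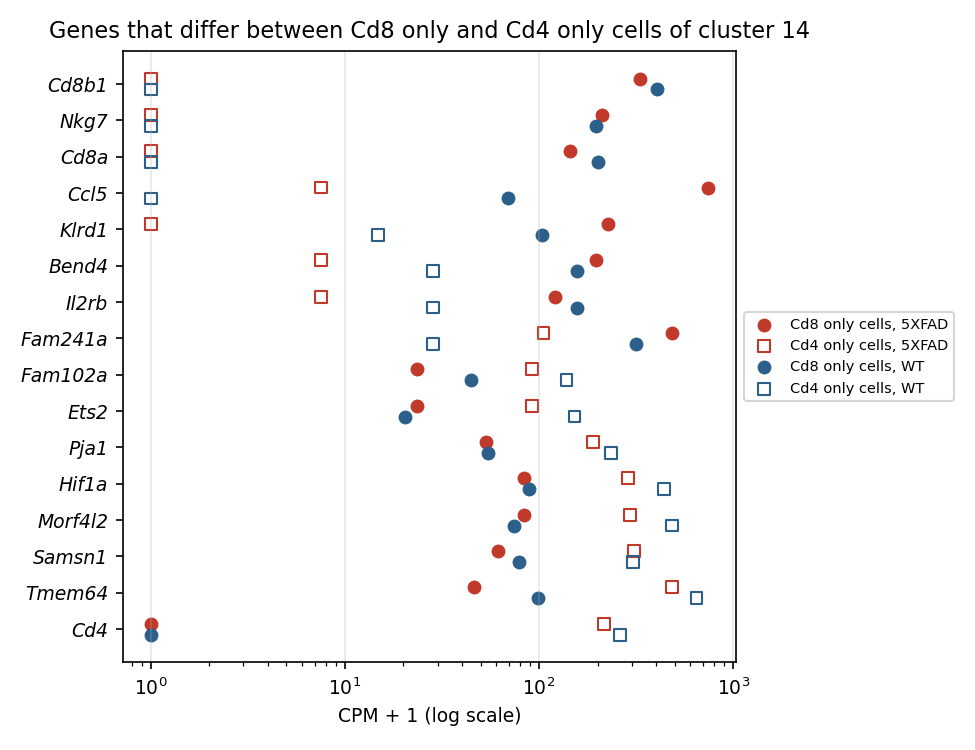
Genes that differ most between Cd8 only and Cd4 only cells of cluster 14, as CPM + 1 on a log scale. Filled points are Cd8 only cells and open squares Cd4 only cells, with 5XFAD above WT in each row; Nkg7 is at 211 CPM in 5XFAD and 195 in WT in Cd8 only cells and at 0 in Cd4 only cells, and the high Ccl5 value of 5XFAD comes almost wholly from 1 cell.

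The receptor genes showed many segments. A beta chain variable segment (Trbv) was caught in 14 cells of 5XFAD and 9 of WT, spread over 9 and 7 different segments with at most 3 cells sharing 1. An alpha chain variable segment (Trav) was caught in 16 and 13 cells over 16 and 12 segments. The 3′ assay catches few of these 5′ segments, so the numbers say little about clones. Trbc1, 1 of the near-identical pair of beta constant genes, was found in 41 of 60 5XFAD cells (68.3%, 55.0 to 79.7) and 28 of 61 WT cells (45.9%, 33.1 to 59.2), and Trbc2 in 58 and 60. Reads can be split wrongly between this pair, so the Trbc1 values are uncertain.

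Trdc, the delta constant gene of gamma delta T cells, was found in 8 of 60 cells in 5XFAD and 0 of 61 in WT, which allows up to 4.92% of WT cells with a UMI by the limit of 3 counts and up to 5.87% by the Clopper-Pearson interval. The 15 UMIs of 5XFAD against 0 in WT gave a ratio of at least 4.91-fold, with a floor of 3 counts over the cluster. A single 5XFAD cell held 7 of the 15 and had 22 Ccl5 UMIs, 0 Trac UMIs and 18 Trbc UMIs. In cluster 13, Trdc was found in 57.9% of cells in 5XFAD and 57.1% in WT, and in cluster 11 in 29.7% and 25.0%. Clusters 8 and 10 each had 2 cells with Trdc in 5XFAD and 0 in WT. A UMI of Trac, Trbc1 or Trbc2 was also found in 76 of 76 and 46 of 49 cells of cluster 13.

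Cluster 14 took nearly the same share of both libraries. It made up 1.74% of all cells in 5XFAD (1.33 to 2.24) and 1.77% in WT (1.36 to 2.27), a log2 share ratio of -0.02 (-0.56 to 0.51). Among T lineage cells it made up 12.02% (9.30 to 15.2) and 14.7% (11.4 to 18.5), with a log2 ratio of -0.29 (-0.83 to 0.25).

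The gene comparison between libraries covered the 2858 genes with at least 30 UMIs over both. The median log2 ratio of 5XFAD over WT was -0.09, and 57.6% of genes were below 0. A log2 ratio of at least 1 in either direction was reached by 217 genes (7.59%), of which 59 (2.06%) were higher and 158 (5.53%) lower in 5XFAD. The split depended on scaling: with median-of-ratios scaling it was 72 higher and 115 lower, and with totals that leave out ribosomal, mitochondrial and immunoglobulin genes 81 and 108, where the median of all genes shifted by 0.13. These are sizes and not calls of a test.

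Among the named genes that were higher in 5XFAD, several also were in the other T lineage clusters. The spliceosome genes Snrpf and Snrpg, the respiratory chain gene Atp5k and Polr2l, a subunit shared by RNA polymerases, had ratios of 1.06, 0.75, 1.45 and 1.76, and in the 4 clusters 0.83, 0.67, 0.76 and 1.09. Cct6a, a subunit of the chaperonin that folds actin and tubulin, was at 652 CPM in 5XFAD and 215 in WT, a ratio of 1.604 (1.25 to 1.97), and 0.79 in the 4 clusters, which ranged from -0.69 in cluster 8 to 1.42 in cluster 10. There 1 cell of 5XFAD held 53 of the 263 UMIs, and leaving out the highest cell in both gave 1.44.

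Nfkbia, the inhibitor that NF-kB induces to end its own signal, had a larger ratio in cluster 14 than in each of the 4 clusters. It was at 362 CPM in 5XFAD, against 162 CPM in WT, and was detected in 47 of 60 and 27 of 61 cells. The log2 ratio was 1.16 (0.73 to 1.61), where the 4 clusters together gave 0.23, and the difference between these was 0.94 (0.49 to 1.40). The single clusters ran from -0.03 in cluster 13 to 0.63 in cluster 8. The ratio was 1.47 (0.30 to 2.88) within Cd4 only cells and 0.85 (0.22 to 1.49) within Cd8 only cells. Clusters 8, 10, 11 and 13 had higher Nfkbia levels than cluster 14 in both libraries, with means of 980 and 853 CPM.

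The other NF-kB genes did not share this size. Of 10 measured members of the list 6 were higher and 4 lower, with a median of 0.25. Nfkbiz, a nuclear IkB protein, was at 104 CPM in 5XFAD and 60.6 in WT, a ratio of 0.78 (0.03 to 1.57). Ltb, the lymphotoxin beta chain that organises lymphoid tissue, was at 151 and 267 CPM, a ratio of -0.82 (-1.30 to -0.35), and Rel and Nfkb1 had ratios of -0.50 and -0.55. Malt1, a protease that links the T cell receptor to NF-kB, was at 37.2 CPM in 5XFAD and 174 in WT. Its log2 ratio was -2.23 (-3.14 to -1.41), and the difference from the 4 clusters was -1.67 (-2.60 to -0.83), which themselves ranged from -0.71 in cluster 8 to 0.99 in cluster 13. Of the WT UMIs of Malt1, 23 lay in the 9 cells with B cell UMIs, and without such cells the ratio was -1.92.

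Stat4, a mediator of IL-12 signals, was at 300.1 CPM in 5XFAD and 149 in WT (ratio 1.01, 0.55 to 1.49), and 0.97 and 1.16 within Cd4 only and Cd8 only cells. The 4 clusters gave 0.61, and the difference from them was 0.40 (-0.08 to 0.90). Cd40lg was at 59.5 and 17.7 CPM (ratio 1.75, 0.49 to 3.21), with 24 and 7 UMIs, and the 4 clusters gave 1.22, a difference of 0.53 (-0.76 to 2.02). Cd8 only cells had no Cd40lg UMI, and within Cd4 only cells the ratio was 1.59 (-0.18 to 3.99). Cd8b1 was at 109 CPM in 5XFAD, against 215 CPM in WT, and Cd4 at 81.8 and 50.5 CPM. The Cd8b1 ratio was -0.98, and the 4 clusters gave -1.28, a difference of 0.30 (-0.49 to 1.10). Cluster 10 alone gave -1.28. Clusters 8, 11 and 13 were at 5.69 CPM or less in both libraries, with 0 CPM for cluster 13 in 5XFAD, so their ratios rest on few UMIs. The Cd4 ratio was 0.70 (-0.15 to 1.58), and the 4 clusters gave -0.51, a difference of 1.21 (0.30 to 2.14).

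Heat shock genes were lower in 5XFAD, 12 of 12 measured members with a median log2 ratio of -0.42. With the total that leaves out ribosomal, mitochondrial and immunoglobulin genes 9 of 12 were lower, and with median-of-ratios scaling 11. The list summed to 4668 CPM in 5XFAD and 5832 in WT, and it was lower in 5XFAD in the other T lineage clusters too. There it summed to 5912 and 7302 CPM in cluster 8 and 6560 and 8374 in cluster 10. In cluster 11 it summed to 6844 and 7031 CPM, and in cluster 13 to 7907 and 8338. Hspa1a, the inducible HSP70, gave 4 UMIs, all in 1 cell, in 5XFAD and 75 UMIs in 10 cells in WT. These were 9.92 and 189 CPM, a ratio of -4.25 (-6.17 to -2.84), where the 4 clusters together gave -0.61 and ranged from -2.09 in cluster 8 to 0.38 in cluster 11. The top WT cell held 23 of the 75 UMIs and also 22 UMIs of the 7 B cell genes, and without cells that carried B cell UMIs the ratio was -3.45. In Cd4 only cells Hspa1a had 4 UMIs in 5XFAD and 5 in WT (ratio -1.40, -3.73 to 0.82), and in Cd8 only cells 0 and 39. Its neighbour Hspa1b, a near-identical copy, was at 14.9 and 154 CPM (ratio -3.37). Of its WT UMIs 38 lay in the 9 cells with B cell UMIs, and without such cells 6 UMIs were left in 5XFAD and 23 in WT. Hspa1b had 4 UMIs in 5XFAD and 1 in WT in Cd4 only cells, and 1 and 31 in Cd8 only cells. Also lower was Hsph1, a partner of HSP70, at 12.4 and 68.1 CPM (ratio -2.46). For Hsph1 the 4 clusters together gave -0.90 and ranged from -1.32 in cluster 10 to -0.31 in cluster 11. The difference from them was -1.56 (-3.32 to -0.11). Constitutive members differed less, with ratios of -0.11 for Hspa8 and -0.21 for Hsp90ab1. Reads of Hspa1a and Hspa1b can be split wrongly, so their separate values are uncertain.

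**Figure D5:**
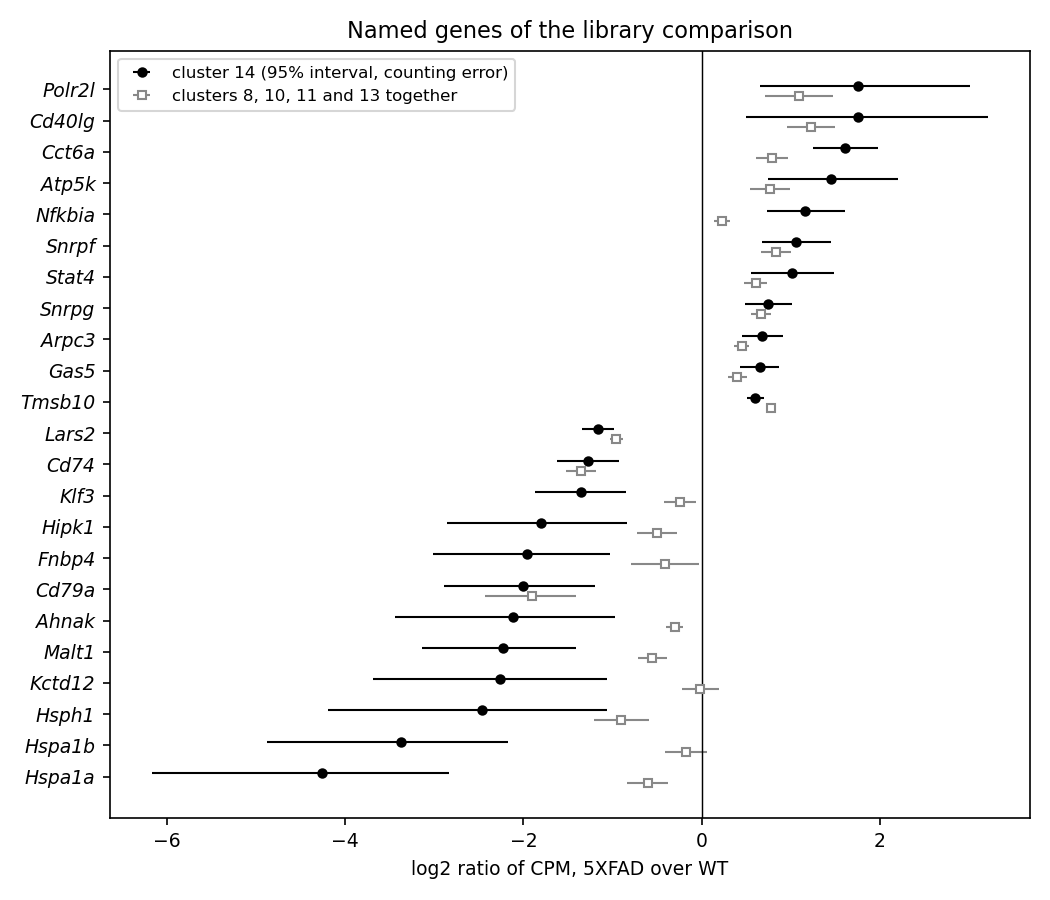
Log2 ratio of CPM, 5XFAD over WT, for 23 of the 24 named genes of the library comparison. Black points are cluster 14 and open squares clusters 8, 10, 11 and 13 together, with 95% intervals for counting error; Snrpg lies at 0.75 and 0.67 while Nfkbia lies at 1.16 and 0.23 and Hspa1a at -4.25 and -0.61.

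Several other lower genes had ratios of smaller size in the 4 clusters. Kctd12, an auxiliary subunit of GABA-B receptors, was at 17.4 CPM in 5XFAD and 83.3 in WT (ratio -2.26, -3.68 to -1.06), where the 4 clusters gave -0.01. Klf3, a repressor of the Klf family, was at 117 and 298 CPM (ratio -1.35, -1.87 to -0.85), and the 4 clusters gave -0.24. Fnbp4, Hipk1 and Ahnak had ratios of -1.96, -1.80 and -2.11, and in the 4 clusters -0.41, -0.50 and -0.30. Lars2, the mitochondrial leucyl-tRNA synthetase, was at 930.1 and 2084 CPM, a ratio of -1.16 that the 4 clusters shared with -0.96. Cd79a, at 39.7 CPM in 5XFAD, against 159 CPM in WT, and Cd74, at 246 and 593 CPM, both belong to the B cell list, of which 8 of 8 measured members were lower. B cell UMIs were higher in the WT library in the other T lineage clusters too, and leaving out cells with 2 or more of them gave ratios of -1.25 for Klf3, -2.21 for Fnbp4, -1.79 for Hipk1, -2.67 for Ahnak and -1.21 for Lars2. Without these cells the Cd74 ratio was -0.64, against -1.27 with them, and Cd79a had 5 UMIs left of 16 in 5XFAD and 7 of 63 in WT. For Kctd12 this left 6 UMIs in 5XFAD and 21 in WT.

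The naive and central memory genes themselves differed little between the libraries. Of 12 members 5 were higher and 7 lower in 5XFAD, with a median log2 ratio of -0.03, near the median of -0.09 over all genes, and with the other scalings 7 were higher and 5 lower, with medians of 0.05 and 0.10. Lef1 had a ratio of -0.01 (-0.28 to 0.27), Satb1 of -0.06 (-0.23 to 0.11) and Klf2 of -0.19 (-0.43 to 0.04). S1pr1 was higher, at 603 CPM in 5XFAD and 414 in WT, with a ratio of 0.54 (0.25 to 0.84). Dapl1 had a ratio of -1.21, whose interval ended at -0.46, and was detected in 15 and 16 cells. The S1pr1 ratio was 0.06 (-0.40 to 0.53) within Cd4 only cells and 0.58 (0.01 to 1.14) within Cd8 only cells.

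Among the remaining lists, the 42 measured nuclear oxidative phosphorylation genes had a median of 0.28 and 36 of them were above 0, as they were with each of the other scalings. Atp5k and Ndufa1 were examples, at 159 and 139 CPM in 5XFAD and 58.0 and 78.2 CPM in WT. The other T lineage clusters shared this direction. The list summed to 9963 CPM in 5XFAD and 8186 in WT in cluster 14, and to 11796 and 9626 CPM in cluster 8. In cluster 10 it summed to 13105 and 10429 CPM, in cluster 11 to 12390 and 9708, and in cluster 13 to 13076 and 11336. The 13 mitochondrially encoded genes had a median of 0.01. T cell transcription factors were lower, 13 of 14 with a median of -0.32, and 11 of 14 were with each of the other scalings. The sum of this list was lower in 5XFAD in the other T lineage clusters too. It was 4390 CPM in 5XFAD and 5143 in WT in cluster 14, and 6235 and 6557 CPM in cluster 8. In cluster 10 it was 4835 and 5898 CPM, in cluster 11 3952 and 4113, and in cluster 13 5735 and 6213. Runx1 was at 47.1 CPM in 5XFAD and 116 in WT (ratio -1.30, -2.15 to -0.50), Ikzf1 at 119 and 230 CPM, and Myb at 129 and 207 CPM. The Myb ratio was -0.68, and the 4 clusters gave -0.84, a difference of 0.16 (-0.58 to 0.89). The CD3 and signalling list had 14 of 18 members lower and a median of -0.25 (13 of 18 with each of the other scalings), led by the kinase Zap70 at 32.2 and 83.3 CPM (ratio -1.37, -2.42 to -0.40), against the adhesion receptor Cd2 with a ratio of 0.36.

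Trafficking receptors and integrins were lower in 12 of 14 measured members, with a median of -0.38 (-0.30 and -0.26 with the other scalings). S1pr4, a receptor related to S1pr1, went the other way at 64.5 CPM in 5XFAD and 25.2 in WT (ratio 1.35, 0.25 to 2.57). The interferon-stimulated list had a median of -0.37 over 8 members and the inhibitory and costimulatory receptors -0.32 over 6, and both stayed below 0 with the other scalings. Immediate early genes, which the enzymatic release of cells can induce, had a median of -0.09 over 18, equal to that of all genes, and of 0.04 with the total that leaves out ribosomal, mitochondrial and immunoglobulin genes. Jun was at 169 CPM in 5XFAD and 346 in WT. Glycolysis, MHC class I presentation and cell cycle lists had medians of -0.03, -0.14 and 0.11 over 9, 9 and 6 members, and that of glycolysis was 0.06 and 0.10 with the other scalings. Of 15 lists with at least 5 measured members, 11 had a median below 0, as 57.6% of all genes were below 0.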

How the data were processed

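Cell Ranger 6.0.1 and the mm10 build are named in the submitters' processing notes. The authors deposited natural log values, ln(1 + UMIs per 10000) per gene and cell, a second deposited table with ln(1 + corrected count), and a cell annotation with UMI counts, percent of mitochondrial UMIs per the file headers, cluster numbers and library. The library named AD was taken as 5XFAD, since the other is named WT. Inverting the natural log gave whole UMIs for 100.0% of 11758401 values within 1e-06. How the authors clustered and treated doublets is not given in the sources used here; no doublet caller was run, and cells with B cell UMIs were counted and left out as an alternative.

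UMIs were summed per cluster and library (3 mice each) and divided by the total (CPM). Log2 ratios have exact conditional binomial intervals, shares Clopper-Pearson intervals (95%), both for counting error only; genes needed 30 UMIs over both libraries. Named genes were the 15 highest and 10 lowest by log2(CPM + 10) over the mean of clusters 8, 10, 11 and 13, the 12 higher and 12 lower in 5XFAD whose interval bound lay farthest from 0, for each list with 5 measured members the 3 largest in the direction of its median and the largest against it, a set of fixed markers, and the 10 most variable genes. Other list members are given as examples after their values were seen. Members and lists were chosen with earlier results of these data known. Calculations were checked on simulated data and run with Python 3.11.15, numpy 2.4.6, scipy 1.17.1 and pandas 2.3.3. Per-gene alternatives covered scaling, minimum UMIs, cells left out, cell weighting and the deposited corrected counts; ratios within Cd4 only and Cd8 only cells were added after seeing the data. Some items are not reported here.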

Additional observations from a re-analysis of the deposited data

How the results depend on the processing

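Depth limits most values: a gene with 30 UMIs over 121 cells has a wide interval, and each genotype is 1 library. With at least 10, at least 50 or no minimum of UMIs, 308, 19 and 1472 genes were higher by at least 1 in 5XFAD, against 59 with the minimum of 30, and 718, 59 and 2322 were lower, against 158. In Cd4 only cells 33 were higher and 42 lower of 805 measured, in Cd8 only cells 27 and 90 of 1227, and with both kinds weighted equally 119 and 238, alternatives chosen after seeing the data; fewer cells leave fewer genes measured. The B cell list median was 1.37 and the Cd74 ratio 1.66 in Cd4 only cells, against -1.53 and -1.27 in all cells, and there 2 of 25 cells in 5XFAD and 0 of 12 in WT had B cell UMIs. Thinning to 3000 UMIs lowered the median share of cells with a UMI over the fixed genes in 5XFAD to 11.7%. Of the 24 named ratios, 22 stayed within their main interval with totals that leave out ribosomal, mitochondrial and immunoglobulin genes and 24 with median-of-ratios scaling; 6 of 17 moved outside it in Cd8 only cells, 3 of 11 moved and 1, Cd74, reversed in Cd4 only cells, and 2 of 24 moved with both kinds weighted equally. Between 11 and 15 of the 15 leading genes were kept under the 7 alternatives tried. No paired analysis was possible because each genotype is 1 pooled library.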

Other observations

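Among cells of cluster 14 the most variable genes in both libraries were Cd74, Malat1, H2-Ab1, Tmsb4x, Actb, Tubb2a, H2-Eb1, Trbc1, Samsn1 and H2-Aa. Those of MHC class II presentation rested on few cells: 1 cell held 68 of the 99 Cd74 UMIs in 5XFAD and 1 held 57 of the 235 in WT, with 11 and 30 UMIs of the 7 B cell genes in these cells. Tubb2a, a beta tubulin, was detected in 24 of 60 cells in 5XFAD and 24 of 61 in WT, with up to 17 and 12 UMIs in a cell. Actb, the cytoskeletal actin, had a median of 15.2 per 10000 UMIs in 5XFAD and 27.1 in WT.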
